A study of Ovis aries with 8 samples.

Results

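The comparison described here set ovine satellite cells that received a control mimic against the same kind of cells that received a control antagomiR. Its members were the 4 control libraries, 2 of each kind, taken by their sample titles from the 8 libraries of the series, and every one of the 20921 gene rows was considered. Neither oligonucleotide was directed at miR-127 or miR-22-3p by its label, so the comparison asked how far the reference libraries of the mimic arm and of the antagomiR arm differed from each other.

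Satellite cells lie beside the fibres of skeletal muscle as its stem cells. In culture they proliferate as myoblasts and can fuse into myotubes. A microRNA mimic is a synthetic duplex that is loaded into an Argonaute protein, where its guide strand directs the silencing of messenger RNAs that pair with its seed. An antagomiR is a chemically modified single strand that pairs with a mature microRNA and keeps it from its targets. A control oligonucleotide of either type goes through transfection like the active one, but is not meant to act on the microRNA under study.

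All 4 groups of the series were primary skeletal muscle satellite cells of genotype SuffolkxTexel, transfected with RNAiMAX at 60% confluence and harvested 4 d later. The control mimic group and the control antagomiR group are both labelled only as control: the labels give neither a sequence nor a concentration for their oligonucleotides. The treated groups received the miR-127 mimic at 100 nM or AntagomiR-22-3p at 500 nM and enter below where stated. No group was left untransfected among the samples used here. Each group held 2 libraries, numbered as experiments in the sample titles. The labels do not say whether these came from separate animals or cultures. The p-values therefore set a group difference only against the spread between such libraries, and that spread may be technical. By label the control groups differ in oligonucleotide type. Whether they also differed in concentration or in handling is not stated, and the part of each was not tested.

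The control libraries held 26637300 and 28560101 counts for the control antagomiR and 27208890 and 34312618 for the control mimic, with between 16730 and 16906 genes detected in each. Genes are given by their Ensembl sheep IDs, because the files do not pair them with symbols and the table of RefSeq sheep genes matched 0 of them. For the same reason the satellite cell markers could not be looked up, and the cell type rests on the label. No oligonucleotide sequence is printed, since the sources used here give none for either control.

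Control mimic cells differed from control antagomiR cells in many transcripts, most of which stood higher in the control mimic. By edgeR's quasi-likelihood test with Benjamini-Hochberg adjustment over all genes tested, 722 of 16353 genes reached an adjusted p of 0.05 and are referred to as called, which is 4.42% of them. Of these, 663 were higher in the control mimic (4.05% of genes tested) and 59 were lower (0.361%). The differences were moderate in size. Among the 663 the median was 1.62-fold, with 190 genes under 1.5-fold, 408 from 1.5-fold to 2-fold, 60 from 2-fold to 3-fold and 5 above that. Among the 59 the median was 1.52-fold, with 24 under 1.5-fold, 27 from 1.5-fold to 2-fold, 6 from 2-fold to 3-fold and 2 above that.

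The split between higher and lower calls depended on how the libraries were scaled. With library totals in place of TMM factors (trimmed mean of M values, which set most genes to no difference), 457 genes were called higher and 503 lower, and the median log2 fold change over all genes tested moved from -0.0091 to -0.17. All 59 lower calls and 445 of the 663 higher calls were among these. The statements below are therefore relative to the bulk of genes in the same libraries and say nothing of the amount of RNA per cell.

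The lean towards higher values was also seen over all abundant genes, called or not, but only away from the centre of their distribution. Over the 10295 genes with a mean of at least 10 CPM (counts brought here to the same library size by TMM factors) in the control libraries, the median log2 fold change was -0.025, the 5th percentile -0.33 and the 95th percentile 0.62. A difference of at least 1.1-fold was found upwards in 3044 of these genes and downwards in 2718. At 1.2-fold or more the numbers were 2051 and 903, and at 1.5-fold or more 610 and 85. Measured from the median of these genes, the last pair was 667 and 71 with TMM factors and 670 and 72 with library totals. A long upper tail thus stood beside a centre that lay slightly below 0. A change of scaling shifts all genes nearly alike and leaves this shape as it is.

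**Figure D1:**
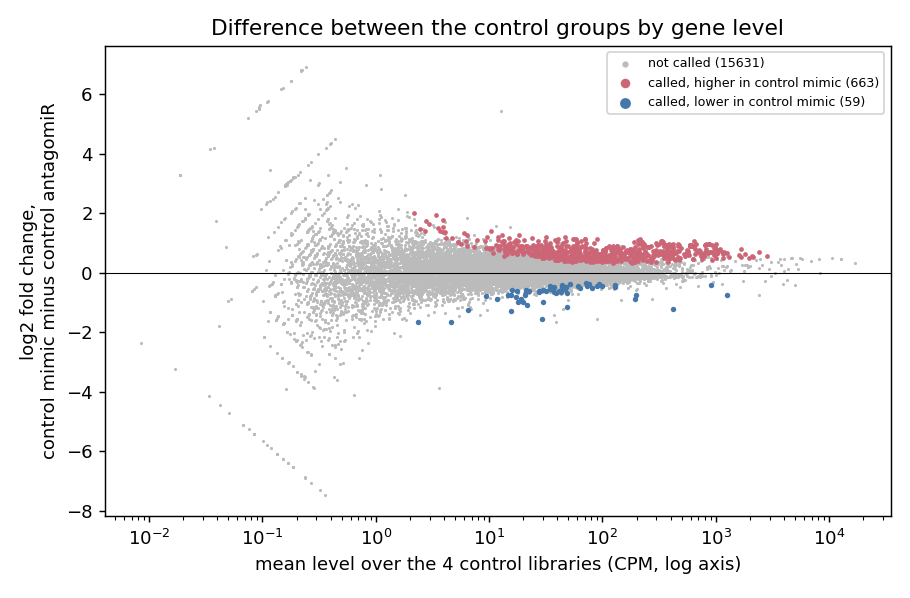
Each point is 1 gene tested, with its mean level over the 4 control libraries (CPM, log axis) against its log2 fold change, control mimic minus control antagomiR; 4 genes with no count in these libraries are not drawn. The 663 genes called higher lie along the upper edge of the cloud up to 2826 CPM, while the 59 called lower are scattered below it.

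Abundant transcripts held most of the calls. In the decile of genes with the highest mean level, 294 of 1636 were called higher and 7 lower. The next decile held 97 and 9, and the lowest decile held none. Precision changed along the same axis: the median standard error (SE) of the log2 fold changes was 0.091 in the top decile and 0.47 in the decile next to the lowest, and the smallest difference called was 1.25-fold in the former and 2.64-fold in the latter. Equal differences were thus harder to call in scarce transcripts, so a larger number of calls in abundant ones is no measure of a larger difference.

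The lean upwards was also seen in the 100 and 500 most abundant genes. Among the 100 genes with the highest mean level, 962 CPM or more, 43 were called higher and 1 lower, and their median log2 fold change was 0.47, against -0.0091 over all genes tested. Of the 43, 16 were IDs of 3 sets with near-identical counts, described below. The 500 highest had 177 higher and 3 lower calls and a median of 0.31, and 39 of the 177 belonged to 11 such sets. Of the 10 highest, edgeR's quasi-likelihood test called 0, while 8 were higher at an unadjusted p under 0.05, DESeq2 called 8 higher and edgeR's likelihood-ratio test 7. The calls at the quasi-likelihood threshold thus ended at 2826 CPM. In the highest quartile of genes as a whole, by contrast, 41.2% had a log2 fold change above 0, and their median was -0.051.

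By the rule for named genes, which took the smallest p in each direction among called genes of at least 10 CPM whose groups did not overlap, 2 IDs were named as higher and 2 as lower in the control mimic. The level of ENSOARG00000004311 was 41.3 and 46.0 CPM in the control antagomiR libraries and 98.1 and 93.1 CPM in the control mimic libraries. Both control mimic values were above both control antagomiR values, with little spread inside either pair. The log2 fold change was 1.13 (SE 0.086, edgeR adjusted p = 0.00081), or 2.19-fold.

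ENSOARG00000007880, the other ID named as higher, repeated these values almost count for count. It held 1224 and 1371 counts in the control antagomiR and 2605 and 3015 in the control mimic, against 1219, 1370, 2605 and 3023 for ENSOARG00000004311. The counts of the pair lay within 2% of each other in each of the 8 libraries, so both IDs may carry the same reads, and they are counted here as 1 signal.

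ENSOARG00000018144 was the called gene of smallest p in the other direction. The control antagomiR libraries held 44.3 and 42.6 CPM and the control mimic libraries 13.5 and 15.8 CPM, so that the groups lay far apart. Its log2 fold change was -1.57 (SE 0.19, edgeR adjusted p = 0.0031), or 2.96-fold lower.

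ENSOARG00000004502 was a more abundant transcript. The control antagomiR libraries held 532 and 635 CPM of it and the control mimic libraries 219 and 288 CPM. The pairs were wider here, but did not overlap. Its log2 fold change was -1.20 (SE 0.15, edgeR adjusted p = 0.0032), or 2.30-fold lower. Without control mimic replicate 2 both lower genes lost their calls (adjusted p = 0.067 for ENSOARG00000018144 and 0.065 for ENSOARG00000004502 by edgeR), while their log2 fold changes were -1.69 and -1.42.

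**Figure D2:**
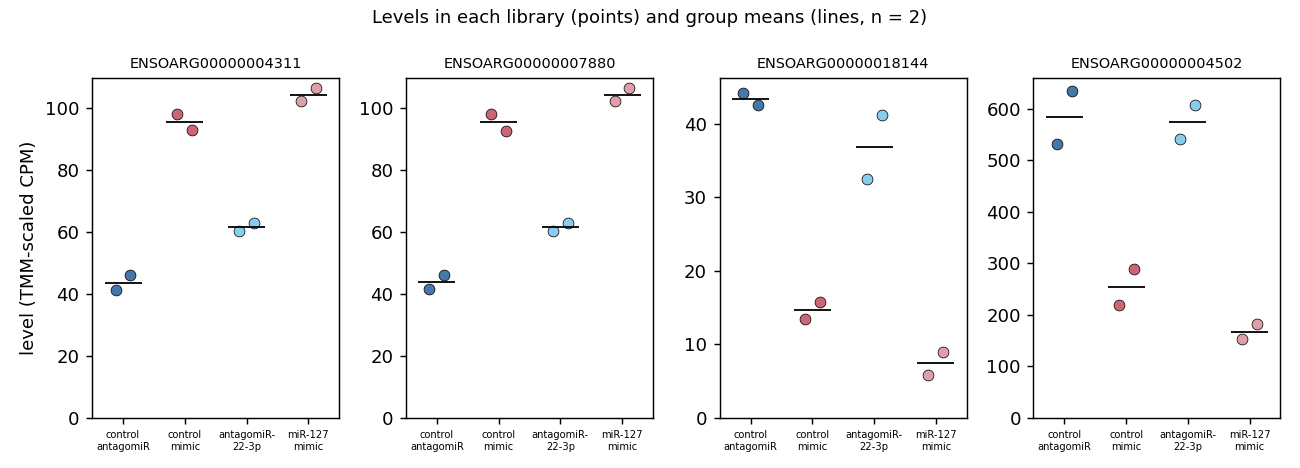
Level of the 4 named IDs (TMM-scaled CPM, axis from 0) in each library, as points, with the mean of the 2 libraries of a group as a line. The panels of ENSOARG00000004311 and ENSOARG00000007880 are nearly the same picture, and in all 4 panels the control mimic libraries lie on the same side of both antagomiR-type groups as the miR-127 mimic libraries.

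In the treated cells, whose libraries are separate from those of the controls, the same 4 IDs differed in the same direction between the arms. ENSOARG00000004311 stood at 60.3 and 62.8 CPM after AntagomiR-22-3p and at 102 and 106 CPM after the miR-127 mimic. ENSOARG00000018144 stood at 32.6 and 41.2 CPM after AntagomiR-22-3p and at 5.81 and 8.99 CPM after the miR-127 mimic. ENSOARG00000004502 stood at 542 and 608 CPM and at 152 and 183 CPM. For ENSOARG00000004311 the difference was smaller in the treated than in the control libraries, and for both lower genes it was larger. None of these inequalities was called by edgeR's quasi-likelihood test of the difference itself (0 of 4 IDs, adjusted p = 0.80 for each), although the unadjusted p lay between 0.012 and 0.019. The treated libraries also hold any effect of AntagomiR-22-3p and of the miR-127 mimic.

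IDs with near-identical counts made up a distinct block of the higher calls. Among genes with at least 1000 counts over the series, 80 IDs fell into 31 sets whose members agreed within 2% in each of the 8 libraries. Of these 80 IDs, 57 were called higher in the control mimic (71.2%) and 0 lower by edgeR's quasi-likelihood test, where 4.68% of the other 12745 genes of at least 1000 counts were called higher. Most of the 80 were abundant, and calls were more frequent at high levels, so the counts are also given by level. In the top decile 43 of 56 such IDs were called higher, against 251 of the 1580 other genes (15.9%). In the deciles below it the numbers were 14 of 24 and 345 of 11165 (3.09%). The median log2 fold change was 0.78 at either level for these IDs, and -0.035 and -0.012 for the other genes. The sets were looked for after earlier results of these data were known, so these numbers are a description.

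The IDs of a set hold nearly the same counts by definition, so a call for all of them or for none follows from that. In 20 sets every ID was called higher, and in the other 11 sets none was. The log2 fold change was positive in 29 of the 31 sets. With library totals it was positive in 28, with 18 sets called higher throughout and 2 IDs called lower. These calls also rested on single libraries: 6 sets were called throughout without control antagomiR replicate 1 and 14 without control antagomiR replicate 2. There were 7 such sets without control mimic replicate 1. When control mimic replicate 2 was left out there was 1, of 2 IDs. The largest set held 7 IDs, each with 746 and 839 CPM in the control antagomiR libraries and 1202 and 1299 CPM in those of the control mimic. A set of 4 IDs stood at 547 and 634 CPM and at 1108 and 1185 CPM. The most abundant set, of 2 IDs, stood at 9911 and 11244 CPM and at 14153 and 15303 CPM, and was not called.

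Whether the reads of a set came from 1 transcript or from several cannot be told from the counts, since the treatment of reads that map to more than 1 place is not given in the sources used here. The 57 IDs form 20 sets, and how many independent signals they stand for is therefore not known. With 1 ID kept from each set, the test called 678 genes, 622 higher and 56 lower.

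**Figure D3:**
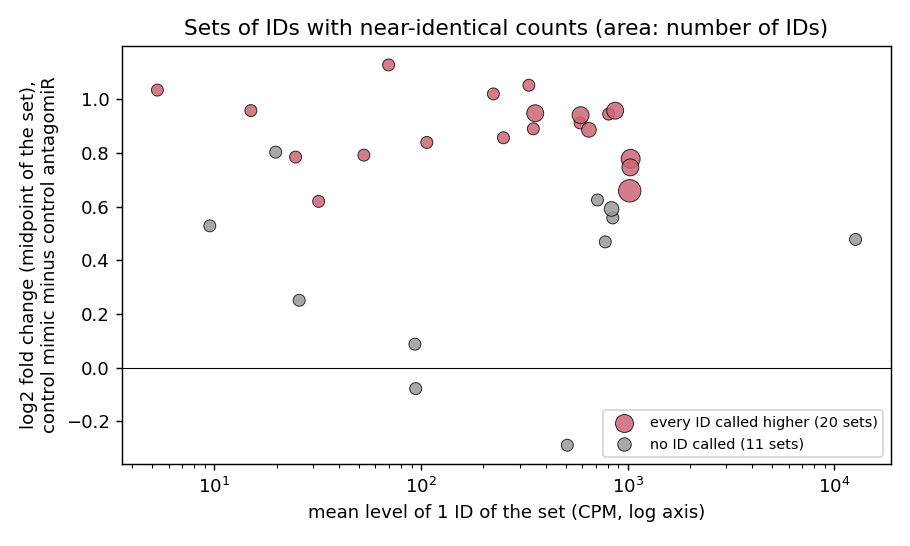
Each of the 31 sets of IDs with near-identical counts is drawn at the mean level of 1 of its IDs (CPM, log axis) and at the midpoint of its log2 fold changes, control mimic minus control antagomiR; the area grows with the number of IDs. The 20 sets called higher lie between about 5 and 1032 CPM, and only 2 of the 31 lie below 0.

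The called genes took a sizeable part of each library. The 663 genes called higher held 12.8% and 13.1% of all counts in the control antagomiR libraries and 18.6% and 19.1% in the control mimic libraries. Of the gain of 5.88 percentage points, the 10 IDs that gained most made up 10.3% and the 50 that gained most 38.3%. The 57 IDs of near-identical sets are counted singly in all these shares, although the IDs of a set may carry the same reads. The gain may therefore be spread over fewer transcripts than IDs. The 59 genes called lower held 0.67% and 0.69% of counts in the control antagomiR and 0.39% in each control mimic library. These genes were chosen on the same libraries, so the shares describe them and test nothing.

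The treated libraries did not enter the contrast, but they entered the filter and the estimate of spread. In them the same 663 genes held 15.0% of counts in each AntagomiR-22-3p library and 17.4% and 20.0% after the miR-127 mimic. The 59 genes held 0.61% and 0.64% after AntagomiR-22-3p and 0.33% in each miR-127 mimic library. For both lists the AntagomiR-22-3p libraries lay between the control antagomiR and the control mimic, nearer to the former. The lists were chosen for a difference between the control groups, so this position describes them and tests nothing.

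**Figure D4:**
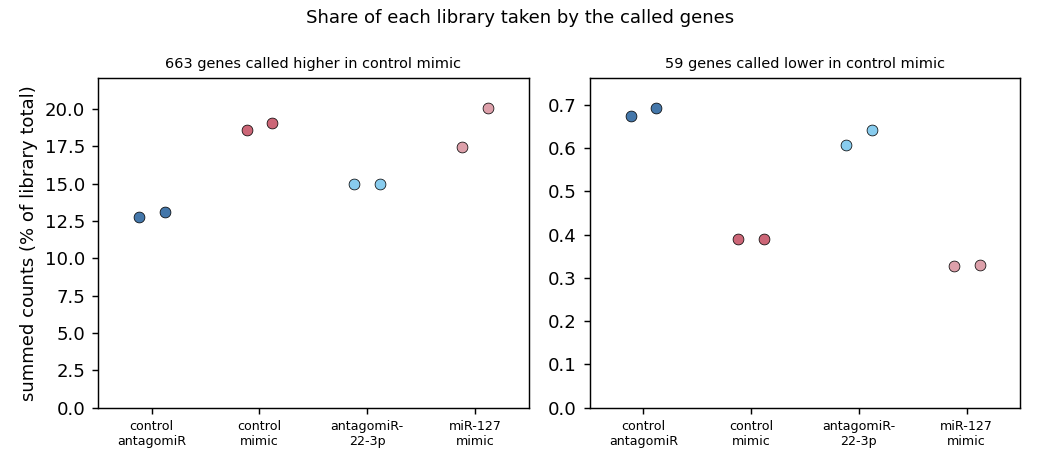
Counts summed over the 663 genes called higher (left) and the 59 called lower (right), as a percent of each library's total, with 1 point per library. The control antagomiR libraries lie at 12.8% and 13.1% on the left and the control mimic libraries at 18.6% and 19.1%, and the treated libraries of each arm lie towards their own control.

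The test was also run apart in the 4 control and in the 4 treated libraries. The lists then shared no library and no estimate of spread, but the filter over all 8 libraries had set which genes were tested. The control libraries alone gave 1052 calls (6.43% of genes tested), 937 higher and 115 lower in the control mimic. The treated libraries alone gave 212 calls (1.3%), 154 higher (0.942%) and 58 lower (0.355%) in the miR-127 mimic. Both fits called 149 genes with the same sign, 130 as higher and 19 as lower, and 0 genes with opposite signs, by edgeR's quasi-likelihood test. These 149 were 14.2% of the control list and 70.3% of the treated list. With library totals the split turned: the control libraries alone gave 685 higher and 1462 lower calls, the shared calls were 161 higher and 184 lower, and 2 genes were called with opposite signs.

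Most of the control calls leaned the same way in the treated libraries, counting those that were also called there. Of the 937 genes called higher between the controls, 699 (74.6%) had both miR-127 mimic libraries above both AntagomiR-22-3p libraries, as had 23.1% of all genes tested. Of the 115 called lower, 94 (81.7%) had both below, as had 23% of all genes tested. For the calls made with library totals the numbers were 528 of 685 higher and 765 of 1462 lower, so the share of lower calls fell with that scaling. The levels compared were scaled by TMM factors in each case. The median log2 fold change of the 937 was 0.64 between the controls and 0.42 between the treated groups, and that of the 115 was -0.56 and -0.53. Both lists were chosen on the control libraries, and the treated libraries also hold any effect of AntagomiR-22-3p and of the miR-127 mimic. The drop from 0.64 to 0.42 is therefore not read as a difference between control and treated cells, and its cause was not tested.

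No transcript that was detected in one control group and missing from the other was called. Both control mimic libraries held at least 1 count, and both control antagomiR libraries none, for 73 genes, and the reverse held for 99. The highest of these had 44 and 42 counts over the 2 libraries that held it. Of the 31 such genes that passed the filter, edgeR's quasi-likelihood test called 0 and DESeq2 called 0, while 19 had an unadjusted p under 0.05 and edgeR's likelihood-ratio test called 24. A count of 0 allows up to 3 counts, which is between 0.087 and 0.11 CPM of the unscaled total in these libraries, and this covers counting error only. The bound takes each count as 1 independent read, which may not hold here.

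Libraries of 1 group were closer to each other than to the other group. Over the genes of at least 10 CPM, the median absolute log2 difference was 0.11 between the control mimic libraries and 0.13 between the control antagomiR libraries, and from 0.17 to 0.19 across the groups. Differences of more than 1.5-fold were found in 0.96% and 3.01% of these genes within the pairs, and in 7.40% to 9.92% across them. The groups did not overlap for 52.8% of all genes tested, 26.2% with the control mimic above and 26.6% with it below. All 722 called genes were among these.

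The number of calls rested on single libraries. Leaving out control antagomiR replicate 1 gave 151 calls and leaving out replicate 2 of that group gave 336. Leaving out control mimic replicate 1 gave 159 calls, and leaving out control mimic replicate 2 gave 2. Each of these fits leaves a group of 1 library, which is then assumed to vary like the other groups, and the median SE of the called genes rose from 0.12 to between 0.15 and 0.16. The median log2 fold change of the 663 genes stayed between 0.66 and 0.75 in them. Control mimic replicate 2, the deeper of its pair, had the higher level in 511 of the 663 genes. Control antagomiR replicate 1 had the lower level of its pair in 479. Among the 59 genes called lower, control mimic replicate 2 had the lower level in 34 and control antagomiR replicate 1 the higher level in 22. These genes were called on the same libraries, and the share over all genes tested is not given here. The part of depth in these counts was not tested. The 2 IDs that were called in each of the 4 fits were ENSOARG00000004311 and ENSOARG00000007880, which form 1 near-identical pair.

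**Figure D5:**
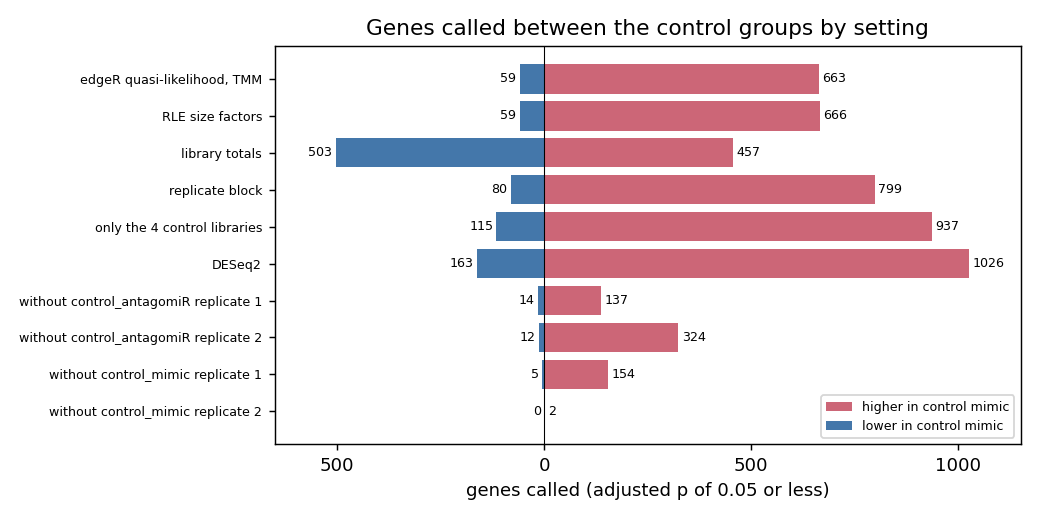
Number of genes called (adjusted p up to 0.05) as higher (right of 0) or lower (left of 0) in the control mimic under 10 settings. Library totals give 457 higher and 503 lower calls in place of 663 and 59, and leaving out control mimic replicate 2 leaves 2 calls.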

How the data were processed

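Poly(A)-selected RNA was sequenced on an Illumina NovaSeq, per the labels' protocols. The authors deposited raw, unnormalized read counts in 1 table of genes by samples. Per the submitters' processing notes, which state no roles, the tools were edgeR 3.34.1, featureCounts 2.0.2 of Subread, RSEM 1.3.3, Trim Galore 0.6.5 and FastQC 0.11.8. Genome build, annotation, strand setting and the handling of multi-mapping reads were not given in the sources used here. Odd numbers made up 11.9% to 15.6% of low counts (1 to 100) per library, so a count may not stand for 1 independent read.

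Groups came from the sample titles. The samples of the miR-127 mimic share 1 description, so the experiment number in the titles gave their columns. In R 4.3.3 with edgeR 4.0.16, filterByExpr (minimum count 10, minimum total 15) kept 16353 genes; 2981 rows had no count. Counts were scaled with TMM factors (0.947 to 1.11 in the control libraries) and fitted in 1 quasi-likelihood model with a mean for each of the 4 groups, which leaves 4 residual degrees of freedom. Tests were 2-sided, with Benjamini-Hochberg adjustment over all genes tested. SE was derived as the absolute log2 fold change over the root of its F statistic. The named genes were, in each direction, the 2 called genes of smallest p with a mean of at least 10 CPM over the control libraries and groups that did not overlap.

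The alternatives tried were RLE, upper-quartile and no composition factors, other filters and thresholds, DESeq2 1.42.0, edgeR's likelihood-ratio test and glmTreat, only the 4 control libraries, the replicate number as a block, 1 ID per near-identical set, and leaving out each library. Halved counts and the block in the control libraries alone were chosen after seeing the data. The fit was checked on counts simulated from each gene's mean, with set changes in the control mimic and a spread by level only. These counts held no gene-specific spread and no near-identical sets, so they say nothing of how stable the calls are. Gene lists by symbol were not used, for lack of symbols. The comparison, the lists and the rules were chosen with earlier results of these data known.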

Additional observations from a re-analysis of the deposited data

How the results depend on the processing

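Between the control groups the test called 722 genes, 663 higher and 59 lower in the control mimic. RLE factors gave 725 calls, upper-quartile factors 804, no filter 874, the stricter filter 736 and halved counts 731. Library totals gave 960 (457 higher, 503 lower). DESeq2 called 1189 (1026 higher, 163 lower) and left 1903 genes without an adjusted p, and edgeR's likelihood-ratio test called 1270 (1059 higher, 211 lower). Against a null of at most 1.2-fold, glmTreat called 237 (228 higher, 9 lower). At an adjusted p of 0.01 there were 190 calls (186 higher, 4 lower), and at 0.1 there were 1147 (973 higher, 174 lower). The control libraries alone gave 1052 calls, 115 of them lower. Leaving out 1 of the 8 libraries gave from 2 to 966 calls, 2 to 882 higher and 0 to 84 lower; the count of 0 lower calls arose without control mimic replicate 2, where 604 genes were lower at an unadjusted p under 0.05 by edgeR's quasi-likelihood test. The cause of these shifts was not tested, and each fit without a library also held fewer samples. Same-numbered control libraries deviated from their group means without relation (r = -0.016 across genes). Over all pairs of groups r ran from -0.069 to 0.17, the highest between the control antagomiR and AntagomiR-22-3p. Such values cannot decide whether libraries of the same number shared an experiment. The replicate block gave 879 calls over all 8 libraries and 1184 (1030 higher, 154 lower) in the control libraries alone. Calls shared with the treated libraries numbered 149, and were 139 with RLE factors, 174 with the stricter filter, 345 with library totals and 365 at an adjusted p of 0.1 in both. No named ID changed direction under any setting run. The smallest difference called was larger in scarce transcripts; the part of depth in this was not tested.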

Other observations

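In 3 of the 14021 genes with a mean of at least 2 CPM over the control libraries, 1 control library stood at least 10-fold above or below each of the other 3. These genes were picked out after their values were seen and none was called. ENSOARG00000000171 held 16 and 18 counts in the control antagomiR libraries and 16 and 1600 in the control mimic libraries, while the treated libraries held from 678 to 900. The low state was thus shared by 3 of the 4 control libraries and by no treated one, and the control mimic pair was split (log2 fold change 5.44 with an SE of 1.40, edgeR adjusted p = 0.059).

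ENSOARG00000003439 held 402 and 324 counts in the control antagomiR, 0 and 290 in the control mimic, 666 and 249 after the miR-127 mimic, and 646 and 0 after AntagomiR-22-3p. Its absence thus fell on 1 library of a control group and 1 of a treated group, with different replicate numbers. ENSOARG00000013697 held 398 counts in control antagomiR replicate 1 and from 2 to 22 in each of the other 7 libraries.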
